A study of Mus musculus with 6 samples.

Results

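The miRNAs of the imprinted miR-379 to miR-410 cluster were followed in skin of mice irradiated with ultraviolet A (UVA) and of non-irradiated mice. The cluster's members were chosen by name: entries of the small RNA count table whose miRNA name, without arm and copy number, is one of 38 names of the cluster. An entry is a mature miRNA sequence, and its arm, 5p or 3p, says which side of the hairpin precursor it comes from. The rule found 66 of the 1480 entries, from 37 of the 38 names (miR-758 had no entry). Of these, 31 were 5p and 35 were 3p sequences.

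Each group had 3 libraries of total RNA from skin. The UVA mice received 89.88 J/cm2 in all, given every other day over 4 months, and the other mice received no treatment. All mice were kept on a standard light cycle with free food and water. The sources used here give no strain, age or sex and do not say whether a library came from a single animal, so p-values reflect just the variation among these libraries, which may be technical.

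The cluster lies in the Dlk1-Dio3 region, where the maternal chromosome gives rise to long non-coding RNAs that carry miRNA and small nucleolar RNA genes while the paternal chromosome expresses the protein-coding genes Dlk1, Rtl1 and Dio3. Its hairpins are thought to be cut from a long maternal transcript of which the annotated RNA Mirg is a part. Its miRNAs are best known from placenta, brain and muscle. In rat neurons the transcription factor Mef2 drives the cluster, and in mouse muscle Mef2a controls miRNAs of this region. What the cluster does in skin is less well described.

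In GRCm38 all 37 hairpins lay on chromosome 12 within 38.9 kb, from 109709060 (the start of Mir379) to 109747960 (the end of Mir3072). The stretch from Mir379 to the end of Mir410 measured 34.7 kb. All but 1 were on the plus strand. The exception, Mir299b, lies opposite Mir299a on the minus strand. The last 13 hairpins, from Mir382 on, lay within Mirg (109729764 to 109749460, plus strand), where 9 overlapped an exon and the others were intronic. The 24 hairpins before it lay in no longer annotated gene.

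Some of the mature sequences with large changes, and a few that did not change with them, are shown as deposited, with the seed, bases 2 to 8 from the 5′ end, in capitals. The seed is the part that pairs with target mRNAs. The first 2 pairs come from the first hairpins of the cluster, Mir379 and Mir411, and their 3p arms share a seed.
miR-379-5p: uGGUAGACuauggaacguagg
miR-411-5p: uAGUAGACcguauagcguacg
miR-379-3p: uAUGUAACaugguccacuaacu
miR-411-3p: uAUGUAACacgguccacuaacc
miR-380-5p: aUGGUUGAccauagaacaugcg
miR-376c-3p: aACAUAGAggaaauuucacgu
miR-381-3p: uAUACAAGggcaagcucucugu
miR-539-5p: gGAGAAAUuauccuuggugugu
miR-485-5p: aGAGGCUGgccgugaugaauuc
miR-369-5p: aGAUCGACcguguuauauucgc
miR-369-3p: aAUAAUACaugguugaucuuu

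Of the 66 entries, 62 had a RefSeq mature sequence of the same name and all 62 were identical to it. There were 6 seeds shared by 2 members each. Besides that of miR-379-3p and miR-411-3p, they joined miR-379-5p with miR-1193-5p, miR-381-3p with miR-539-3p, miR-494-5p with miR-410-5p, miR-376b-5p with miR-376c-5p, and the 3p arms of miR-299a and miR-299b. Members within 2 edits of another entry, or contained in it, numbered 8. They were both arms of miR-299a and miR-299b, the 3p arms of miR-379 and miR-411 and the 5p arms of miR-376b and miR-376c. The sources used here do not say how reads were split between such sequences, so their values are uncertain to that extent.

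The hairpins whose arms are compared further on are printed with the mature arms in capitals, 5p first, from RefSeq (GRCm38.p6, plus strand). They lie at 109709060 to 109709125 (Mir379), 109710175 to 109710256 (Mir411), 109710638 to 109710700 (Mir299a) and 109743418 to 109743496 (Mir369).
Mir379: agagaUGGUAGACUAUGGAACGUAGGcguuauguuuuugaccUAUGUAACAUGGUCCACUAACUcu
Mir411: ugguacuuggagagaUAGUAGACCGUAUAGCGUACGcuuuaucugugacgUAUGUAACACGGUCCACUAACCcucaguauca
Mir299a: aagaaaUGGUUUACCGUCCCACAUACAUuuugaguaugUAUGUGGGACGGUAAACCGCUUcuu
Mir369: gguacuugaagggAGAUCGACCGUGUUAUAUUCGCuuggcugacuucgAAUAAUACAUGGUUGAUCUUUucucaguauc

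Between 8194504 and 12817972 miRNA reads were counted per UVA library, and between 7653819 and 17192811 per control library. Total reads as counted by the authors, 20472250 to 21896213 and 26904012 to 30459804, did not overlap between the groups, and any batch behind that gap and the treatment cannot be told apart. Non-irradiated replicates 1 and 2 stood apart in low counts: 21 and 34 of all entries had 1 to 9 reads there, against 579 to 591 in the UVA libraries. Entries with any read numbered 506 and 574 there, 715 in non-irradiated replicate 3 and 1088 to 1099 in the UVA libraries. Of the 66 members, 2 and 2 had 1 to 9 reads in those replicates, 12 in non-irradiated replicate 3 and 14 to 17 in the UVA libraries. Epidermal miRNAs, the check of the tissue label, had reads in all 13 entries and summed to 34822 to 86851 CPM (read counts scaled to a common library size) in UVA and 44762 to 55033 CPM in non-irradiated skin.

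The question was how UVA exposure changed the cluster's output in skin. The cluster gave 1.20%, 1.16% and 1.03% of all miRNA reads in non-irradiated replicates 1, 2 and 3, and 0.221%, 0.176% and 0.415% in UVA replicates 1, 2 and 3. Every UVA library lay below every non-irradiated one. The mean share was 1.13% ± 0.0894 without and 0.270% ± 0.127 with UVA (SD, n = 3 per group; 4.19-fold; p = 0.1 by a 2-sided exact permutation test, which cannot go lower with 3 against 3). The difference of -0.861 percentage points depended on the denominator: it was -0.384 out of the authors' total reads (3.96-fold) and -1.35 without the reads of miR-1a and miR-133a (5.77-fold). The exact Clopper-Pearson 95% intervals of these shares reached no farther than 0.00716 percentage points to either side and cover counting error only. In bulk skin, fewer cells that make a miRNA and less of it per cell cannot be told apart.

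The cluster reads were dominated by the 5p arms of its first 2 hairpins. miR-379-5p and miR-411-5p together made up 79.7%, 80.7% and 72.8% of cluster reads in the non-irradiated libraries and 39.2%, 50.8% and 46.2% in the UVA libraries. miR-381-3p took 2.27% to 4.58% of cluster reads without UVA. With UVA it took 39.2%, 12.0% and 13.5% in replicates 1, 2 and 3, so that in UVA replicate 1 it was the largest part of the cluster. Without miR-379-5p, the most abundant member, the cluster still gave 0.530% ± 0.0629 of miRNA reads in non-irradiated and 0.185% ± 0.0801 in UVA skin (SD, n = 3 per group), with no overlap.

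**Figure D1:**
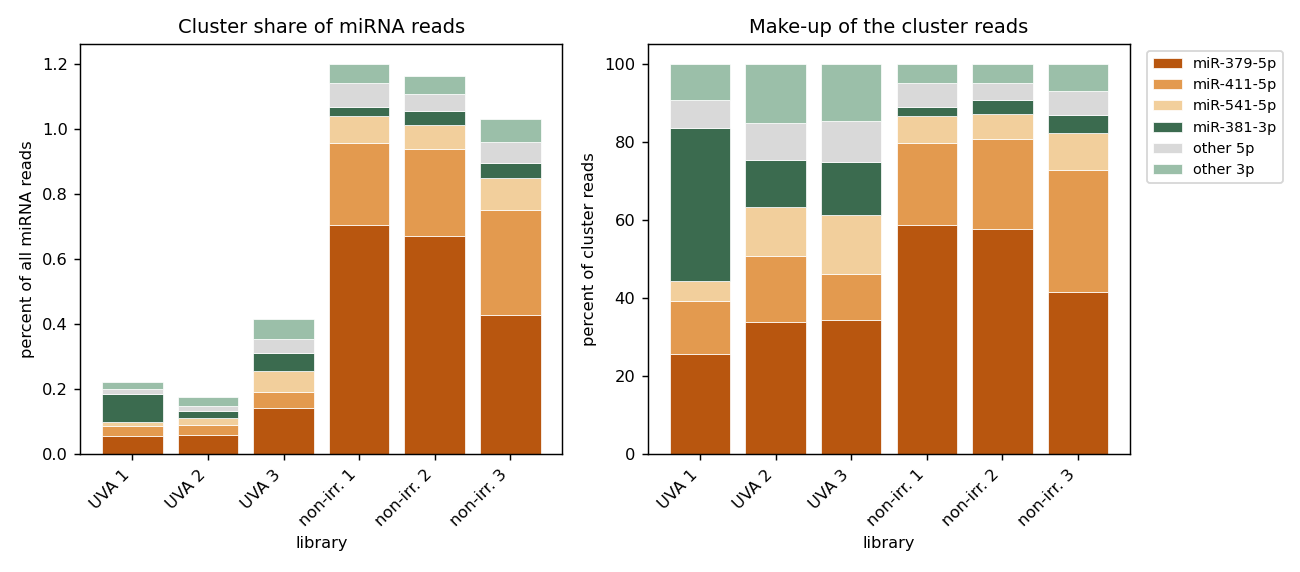
Share of all miRNA reads taken by the cluster (left, percent) and make-up of the cluster reads (right, percent) in each library, stacked by member. The non-irradiated bars reach 1.03% to 1.20% and are mostly miR-379-5p and miR-411-5p, while the UVA bars reach 0.176% to 0.415% and hold a larger part of miR-381-3p and other 3p sequences.

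Of the 66 members, 41 had enough reads to be tested. With edgeR's quasi-likelihood test at an adjusted p of 0.05 or lower (such members are said to be called), 13 were lower in UVA skin, none was higher and 28 were not called. Of all miRNAs tested, 8.22% were called lower and 13.6% higher. In this fit no member had an unadjusted p of 0.05 or lower in the higher direction, while 3 did with no filter. The count was 1 with scaling by library size alone or by the authors' total reads. It was also 1 when UVA replicate 1, UVA replicate 2 or non-irradiated replicate 3 was left out. The DESeq2 Wald test and limma-voom called none higher. The groups did not overlap in 22 of the 41 tested members, all 22 lower in UVA, against 20.0% of all tested miRNAs lower and 28.3% higher without overlap. The median log2 fold change was -1.26 over the 41 members and 0.27 over all tested miRNAs, and 35 of 41 members were negative against 44.5% of all tested.

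The choice of scaling moved the medians of the members and of all miRNAs in the same direction. With library size alone in place of TMM scaling, the median of all miRNAs was 0.81 and that of the members -0.72, with 29 of 41 negative and 9 called lower. With the authors' total reads they were 1.12 and -0.64, with 25 of 41 negative, 9 called lower and 1 higher. The distance of the members' median from that of all miRNAs was -1.54, -1.52 and -1.76 under the 3 scalings. A change of scaling moves the log2 fold changes of all miRNAs by a similar amount. These distances are therefore no check of the result.

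**Figure D2:**
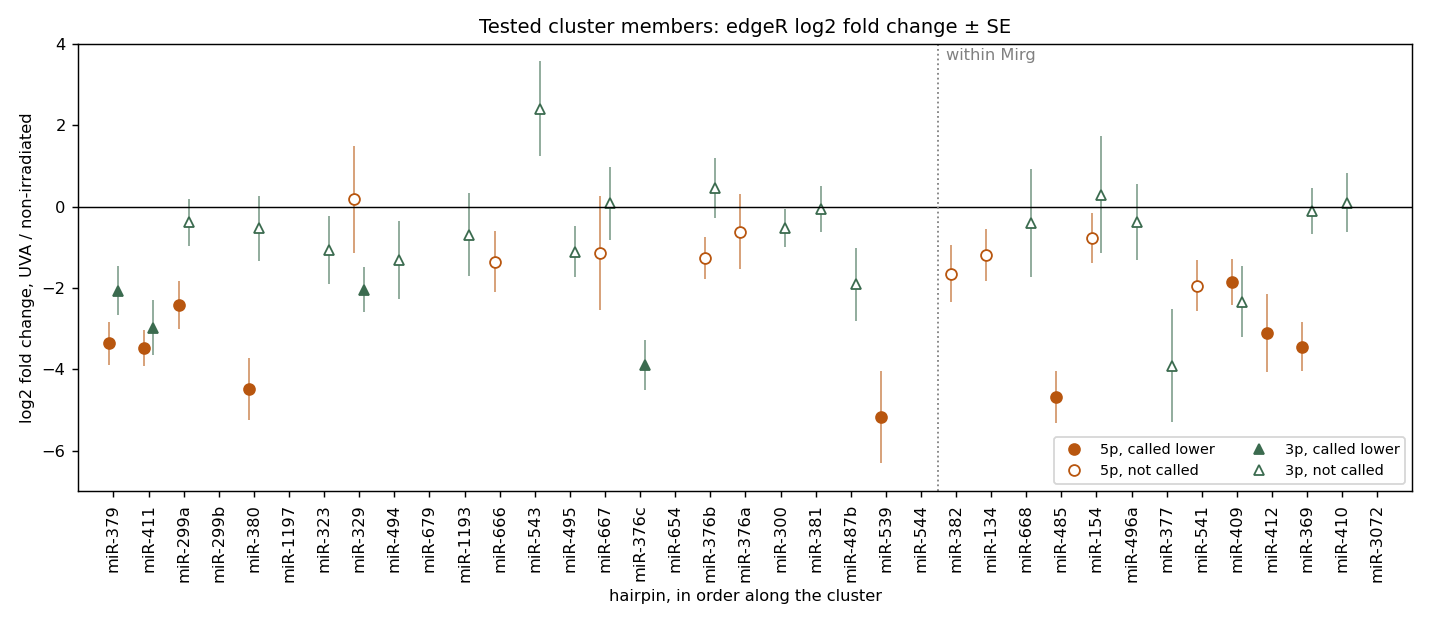
edgeR log2 fold change (UVA over non-irradiated) ± SE of the 41 tested members, placed in the order of their hairpins along the cluster. Circles are 5p and triangles 3p sequences, filled where called, and the dotted line marks where Mirg starts; called members occur from miR-379 at one end to miR-369 near the other, and 19 of the 28 open symbols are 3p.

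At the head of the cluster, miR-379-5p, the most abundant member, stood at 8523, 8815 and 4772 CPM in non-irradiated replicates 1, 2 and 3 and at 462, 490 and 1191 CPM in the UVA replicates. The CPM are relative to the TMM-scaled library of tested miRNAs. The groups were separated by a wide gap, with UVA replicate 3 nearest to the controls. It fell by 3.37 on the log2 scale (SE 0.53, edgeR adjusted p = 0.00450), 10.3-fold between the means. Its UVA mean was 714 CPM and 476 CPM without UVA replicate 3. In mouse liver this miRNA is known to respond to glucocorticoids.

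miR-411-5p, from the next hairpin 1.1 kb on, was at 3040, 3510 and 3589 CPM without UVA and at 246, 247 and 417 CPM with it. The libraries of each group lay close together. Its change of -3.48 on the log2 scale (SE 0.45, edgeR adjusted p = 0.00196) had the smallest p of the cluster and was 11.1-fold between the means. The 3p arms of these hairpins were far less abundant and were called as well. miR-411-3p went from 175, 121.5 and 178 CPM to 8.36, 12.5 and 39.7 CPM (-2.97 on the log2 scale, SE 0.68, edgeR adjusted p = 0.0143), and its UVA mean of 20.2 CPM was 10.4 CPM without UVA replicate 3. miR-379-3p went from 103, 69.6 and 52.1 CPM to 9.89, 13.03 and 30.8 CPM (-2.07, SE 0.61, edgeR adjusted p = 0.0390), and its UVA mean of 17.9 CPM was 11.5 CPM without UVA replicate 3. UVA replicate 3 was the highest UVA library in all 4 sequences of these hairpins.

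miR-380-5p, known to repress p53 in mouse neural tumour cells, was at 56.1, 36.0 and 19.2 CPM without UVA and at 2.04, 0.652 and 2.25 CPM with it. The lowest control lay far above the highest UVA library. Its log2 fold change was -4.49 (SE 0.76, edgeR adjusted p = 0.00555). The 3p arm of this hairpin was at 11.1, 2.14 and 7.43 CPM and at 5.17, 2.82 and 6.25 CPM, overlapping, with a log2 fold change of -0.54 and no call (edgeR adjusted p = 0.638).

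miR-299a-5p was at 42.7, 32.1 and 42.5 CPM without UVA and at 3.89, 7.75 and 10.4 CPM with it (-2.42 on the log2 scale, SE 0.58, edgeR adjusted p = 0.0189). Its 3p partner was at 11.1, 29.7 and 29.7 CPM and at 17.5, 15.9 and 20.4 CPM, with the UVA libraries inside the range of the controls (-0.39, SE 0.57, edgeR adjusted p = 0.636). The miR-299b entries from the opposite strand held 7 reads in UVA replicate 1 and none in any other library.

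Further along, before Mirg, calls were scattered among members that were not called. miR-329-3p, a miRNA known from active neurons, was at 42.6, 52.3 and 72.1 CPM without UVA and at 7.40, 18.0 and 15.1 CPM with it (-2.05 on the log2 scale, SE 0.56, edgeR adjusted p = 0.0280). Its 5p arm was not called (0.18, SE 1.31). miR-376c-3p belongs to a family known for adenosine-to-inosine editing in the seed. It was at 27.7, 24.6 and 25.8 CPM against 1.85, 1.30 and 2.05 CPM (-3.90, SE 0.61, edgeR adjusted p = 0.00450), and the libraries of each group lay close together. Its relatives were not called. miR-376b-5p was at 94.3, 61.3 and 68.4 CPM and at 44.97, 20.3 and 28.1 CPM (-1.26, SE 0.52, edgeR adjusted p = 0.0979). miR-376b-3p was at 5.07, 1.99 and 5.53 CPM and at 6.32, 4.71 and 6.25 CPM (0.46, SE 0.74, edgeR adjusted p = 0.670).

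miR-539-5p had the largest fitted fall of the cluster. It was at 22.8, 12.7 and 21.3 CPM without UVA and at 0, 0.579 and 1.025 CPM with it, which is 275, 166 and 146 reads against 0, 8 and 10 reads. The log2 fold change was -5.17 (SE 1.14, edgeR adjusted p = 0.0132). Its UVA mean was 0.535 CPM and 0.290 CPM without UVA replicate 3.

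miR-381-3p and miR-300-3p, neighbours in the middle of the cluster, were not called. miR-381-3p was at 328.8, 551 and 526 CPM without UVA and at 708, 174 and 470 CPM with it, so the UVA libraries lay on both sides of the controls. Its log2 fold change was -0.06 (SE 0.56, edgeR adjusted p = 0.951), and it turned positive with library size alone (0.49). miR-300-3p was at 105, 97.1 and 91.4 CPM and at 52.0, 63.3 and 89.7 CPM (-0.52, SE 0.47, edgeR adjusted p = 0.430), just without overlap, and was 0.027 with library size alone. Of the members with a positive log2 fold change, miR-543-3p, chosen here after its values were seen, had the largest: 1.41, 11.7 and 11.2 CPM without UVA and 5.29, 9.48 and 114 CPM with it (2.41, SE 1.17, edgeR adjusted p = 0.148). A single library carried that value: its UVA mean of 43.0 CPM was 7.39 CPM without UVA replicate 3.

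In the part of the cluster within Mirg, miR-485-5p, known in rat neurons as a regulator of synapses, was at 46.9, 59.96 and 48.9 CPM without UVA and at 1.53, 1.30 and 3.28 CPM with it. The control libraries lay close together and far above all UVA libraries. The change of -4.68 on the log2 scale (SE 0.64, edgeR adjusted p = 0.00207) was 25.5-fold between the means. The 3p arm was too rare to test, at 0, 0 and 2 reads without UVA and 3, 4 and 8 reads with it.

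miR-369-5p was at 99.5, 80.5 and 99.5 CPM without UVA and at 5.61, 5.43 and 14.7 CPM with it (-3.45 on the log2 scale, SE 0.60, edgeR adjusted p = 0.00647). Its UVA mean was 8.57 CPM and 5.52 CPM without UVA replicate 3. miR-369-3p, which is known to bind the AU-rich element of TNF mRNA in human cells, was at 15.03, 9.39 and 15.7 CPM and at 11.7, 16.1 and 9.43 CPM (-0.11, SE 0.58, edgeR adjusted p = 0.914). These groups overlapped fully, and the sign turned positive with the authors' total reads (0.71), with library size alone (0.42) and without UVA replicate 3 (0.062).

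Of the other called members of this end, miR-412-5p was at 7.14, 5.12 and 2.77 CPM and at 0.957, 0.434 and 0.307 CPM (-3.11 on the log2 scale, SE 0.95, edgeR adjusted p = 0.0453). Its UVA mean of 0.566 CPM was 0.371 CPM without UVA replicate 1. miR-409-5p was at 30.6, 22.8 and 31.9 CPM and at 5.80, 10.9 and 6.87 CPM (-1.86, SE 0.56, edgeR adjusted p = 0.0431). In both, every UVA library lay below every control.

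Abundant members of this end were lower in every UVA library without reaching the threshold. miR-541-5p, the third most abundant member, was at 1006, 983 and 1084 CPM without UVA and at 93.0, 181 and 525 CPM with it (-1.94 on the log2 scale, SE 0.63, edgeR adjusted p = 0.0521). miR-409-3p was at 135.9, 248 and 168 CPM and at 6.70, 15.1 and 87.2 CPM (-2.34, SE 0.87, edgeR adjusted p = 0.0753). miR-382-5p was at 324, 227 and 259 CPM and at 26.0, 48.7 and 184 CPM (-1.65, SE 0.71, edgeR adjusted p = 0.109). In all 3, UVA replicate 3 lay far above the other UVA libraries. Without it the UVA means were 136.8, 10.9 and 37.3 CPM in place of 266, 36.3 and 86.2 CPM, and all 3 were called lower (edgeR adjusted p = 0.00807, 0.00695 and 0.00971). That library was singled out here as the UVA library nearest to the controls. With all libraries kept, all 3 were also called lower by limma-voom (adjusted p = 0.0159, 0.0163 and 0.0333) and by edgeR with no filter, and the first 2 by the DESeq2 Wald test. None of the 3 was called without UVA replicate 2 (edgeR adjusted p = 0.181, 0.236 and 0.304). The same held with library size alone (0.112, 0.134 and 0.247) and with the authors' total reads (0.0912, 0.0839 and 0.207).

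miR-134-5p, known in rat neurons to restrain dendritic spine size through Limk1, was at 140, 101 and 96.8 CPM and at 26.2, 23.1 and 98.2 CPM. Here UVA replicate 3 reached the level of the controls (log2 fold change -1.20, SE 0.64, edgeR adjusted p = 0.183). The UVA mean of 49.1 CPM was 24.6 CPM without that library, and the member was then called lower (edgeR adjusted p = 0.0162). No other alternative called it, and without UVA replicate 2 its edgeR adjusted p was 0.433. Across the 41 tested members UVA replicate 3 was the highest UVA library in 26, or 63.4%, against 46.9% of all tested miRNAs. miR-410-3p, at the end for which the cluster is named and chosen after its values were seen, was at 2.91, 11.8 and 19.8 CPM without UVA and at 10.7, 13.8 and 12.4 CPM with it (0.10, SE 0.73, edgeR adjusted p = 0.941).

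**Figure D3:**
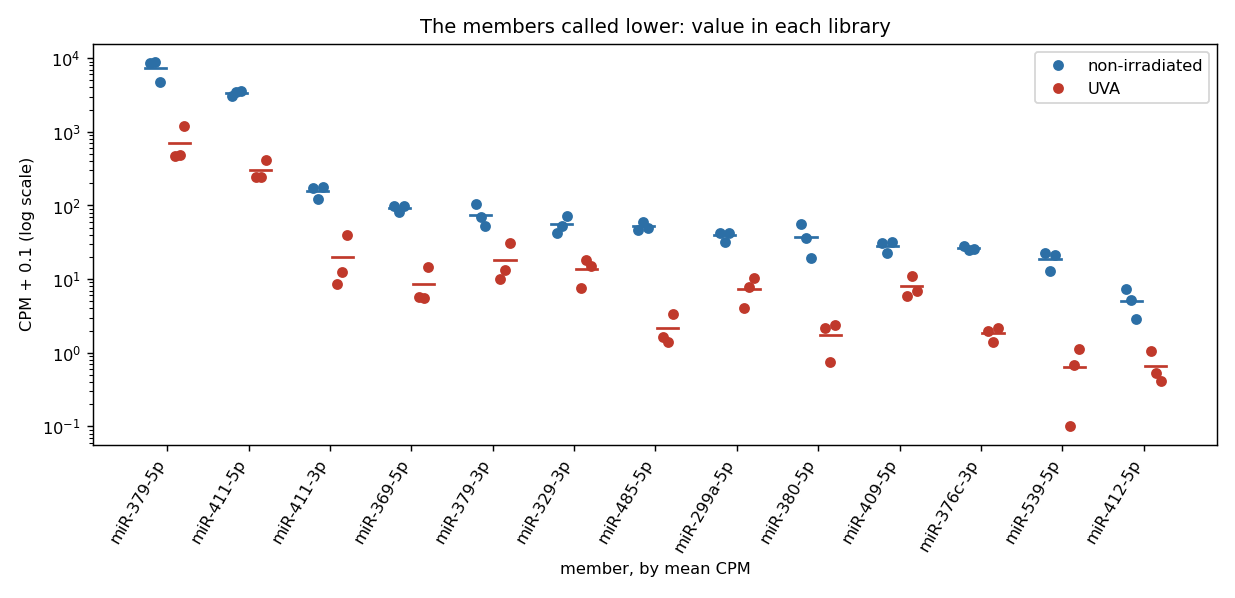
CPM plus 0.1, on a log axis, of the 13 members called lower in each of the 6 libraries, with replicates 1, 2 and 3 from left to right and a line at the group mean. In every member all UVA points lie below all non-irradiated points; miR-539-5p had no read in UVA replicate 1.

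Position along the cluster did not sort the members. Of 26 tested members before Mirg, 9 were called lower, with a median log2 fold change of -1.20. Of 15 within Mirg, 4 were called lower, with a median of -1.65. By arm, 5 of 10 5p members before Mirg and 4 of 8 within it were called lower (medians -1.884 and -1.9). Among 3p members, 4 of 16 before Mirg and 0 of 7 within it were called lower (medians -0.885 and -0.383). This difference between the arms was not tested. Across the 41 members Spearman's rho between distance from Mir379 and log2 fold change was 0.08 (Pearson's r -0.01), and the members share libraries and, in pairs, hairpins. With the reads of both arms summed, 9 of 31 tested hairpins were lower and none higher, against 8.09% of all 383 hairpin sums called lower. They were miR-379, miR-411, miR-380, miR-376c, miR-539, miR-485, miR-377, miR-412 and miR-369, spread over the whole length.

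The arms were more unlike. Of 18 tested 5p members 9 were called lower, and 17 were negative, with a median log2 fold change of -1.90. Of 23 tested 3p members 4 were called lower, and 18 were negative, with a median of -0.54. Over all tested miRNAs the medians were 0.23 for 5p and 0.37 for 3p sequences, with 19 of 222 and 16 of 225 called lower. In 8 of the 10 hairpins with both arms tested, the 5p change was more negative than the 3p change, the exceptions being miR-329 and miR-409. Sequences of 5p arms made up 92.8%, 91.4% and 88.5% of cluster reads in the non-irradiated libraries and 51.5%, 72.8% and 71.8% in the UVA libraries, with no overlap (difference -25.5 percentage points; 2-sided exact permutation p = 0.1, the floor for 3 against 3). This pooled share also depends on which hairpins gave the reads. miR-381-3p alone took 39.2%, 12.0% and 13.5% of cluster reads in the UVA libraries, against 2.27% to 4.58% in the controls. The share without miR-381-3p was not tested.

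Arm use was tested with limma on the log2 ratio of 5p to 3p reads in the hairpins with at least 10 reads of each arm in each library, 74 in all and 6 of the cluster. In 3 of the 6 the ratio was called lower in UVA skin at a limma adjusted p of 0.05 or lower, and the other 3 were not called. Of all 74 hairpins, 36.5% were called and 21.6% were called toward 3p, so the count is read against a high background. A lower ratio in UVA skin, whatever its p, was found in 5 of the 6 and in 52.7% of the 74.

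miR-369 changed most. Its log2 ratio of 5p to 3p reads was 2.82 ± 0.24 without UVA and -0.66 ± 1.15 with it (SD, n = 3 per group; difference -3.48, SE 0.74, limma adjusted p = 1.04e-04), so the reads were mostly 5p in controls and mostly 3p in 2 of 3 UVA libraries. In miR-299a the ratio went from 0.85 ± 0.96 to -1.39 ± 0.67 (difference -2.24, limma adjusted p = 0.0127). In miR-376b it went from 4.25 ± 0.66 to 2.36 ± 0.40 (difference -1.89, limma adjusted p = 0.0351), and stayed on the 5p side. The ratio of miR-379 was 6.62 ± 0.32 and 5.35 ± 0.17, without overlap, and was not called (limma adjusted p = 0.170). That of miR-411, the neighbour with the same 3p seed, was 4.43 ± 0.38 and 4.19 ± 0.75, overlapping (limma adjusted p = 0.805).

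The calls for miR-299a and miR-376b did not hold in every setting. With all libraries kept, both were lost when arms needed 10 reads on average and not in each library (limma adjusted p = 0.101 and 0.108). miR-299a was also not called without non-irradiated replicate 1 (limma adjusted p = 0.120). miR-376b was not called without each single library except UVA replicate 1 (limma adjusted p from 0.0530 to 0.155). miR-369 stayed called without any single library, with limma adjusted p of at most 0.0183. Without UVA replicate 3, miR-409 was called toward 5p (difference 2.32, limma adjusted p = 0.0106).

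**Figure D4:**
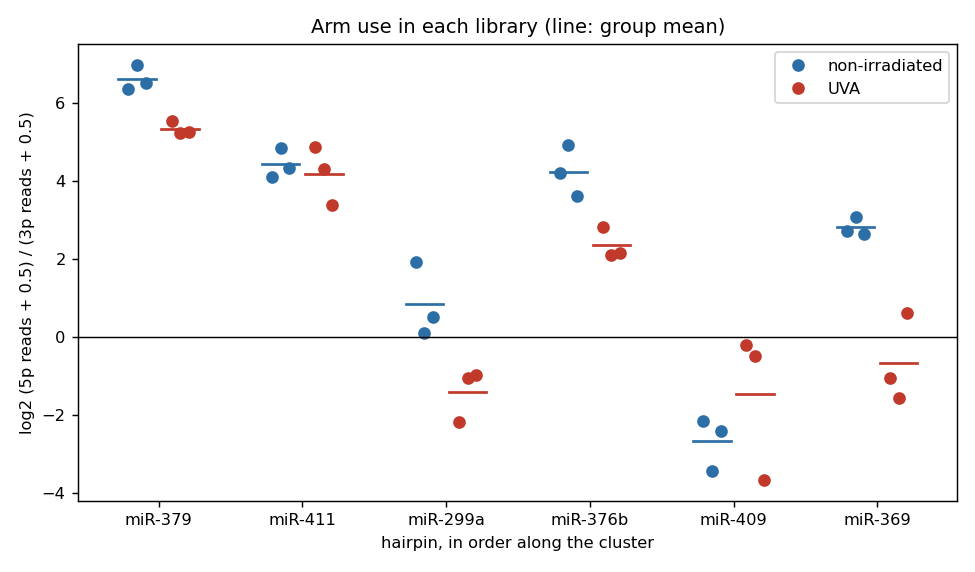
Log2 ratio of 5p to 3p reads (each plus 0.5) in each library for the 6 cluster hairpins with at least 10 reads of each arm in every library, in order along the cluster, with a line at the group mean. The UVA points of miR-369 (-0.66 ± 1.15) lie well below the controls (2.82 ± 0.24), while those of miR-411 overlap them.

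The 25 members that were not tested held at most 26 reads in a library and 50 to 81 reads in sum per library. Of these, 13 had no read in any non-irradiated library, all of them with at most 8 reads in a UVA library. Few low counts were recorded in the first 2 control libraries, and the part of that in these zeros was not tested. miR-3072-3p, from the last hairpin of the cluster, had 0, 0 and 5 reads without UVA and 7, 15 and 26 reads with it. The rare miR-381-5p, miR-679-3p and miR-1197-3p, chosen after their values were seen, went the other way, with 13, 9 and 6, 11, 13 and 8, and 20, 17 and 5 reads without UVA against at most 1, 2 and 3 reads in a UVA library.

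Single libraries carried part of these calls. Of the 13 members called lower, 6 were still called when UVA replicate 2 was left out and 10 when non-irradiated replicate 1 was. Calls over all tested miRNAs fell as well. They were 41 lower and 68 higher with all libraries, and 18 lower and 20 higher without UVA replicate 2. Without non-irradiated replicate 1 they were 33 lower and 24 higher. Leaving out non-irradiated replicates 1 and 2 together left 1 control library, assumed to vary like the UVA libraries, so no calls were read from that fit. Its median log2 fold change was -1.58 over the tested members and 0.32 over all tested miRNAs. All 13 kept a negative log2 fold change under each alternative. The 6 that stayed called in each alternative that kept more than 1 control library were miR-379-5p, miR-411-5p, miR-380-5p, miR-376c-3p, miR-485-5p and miR-369-5p (highest edgeR adjusted p 0.0346). miR-409-5p and miR-412-5p were lost without 5 of the 6 single libraries each (edgeR adjusted p up to 0.0893 and 0.170) and with no filter (0.111 and 0.117). These, miR-329-3p and miR-379-3p were also not called with library size alone or the authors' total reads. miR-379-3p lost its call when UVA replicate 1, UVA replicate 2 or the first control library was left out (edgeR adjusted p from 0.0527 to 0.142). miR-329-3p lost it when UVA replicate 2 or the last control library was left out (0.0796 and 0.0597), and miR-411-3p, miR-299a-5p and miR-539-5p without UVA replicate 2 (0.0796 each).

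Marker lists of other cells went in different directions. The striated muscle list (miR-1a, miR-1b, miR-133a, miR-133b, miR-206, miR-208a, miR-208b and miR-499) summed to 318632 to 479274 CPM without UVA and to 41914 to 58527 CPM with it. Most of that sum was miR-1a-3p in each library but UVA replicate 3, where it held 20088 of 50230 CPM. miR-1a-3p was at 296932 to 437319 CPM without and 20088 to 54395 CPM with UVA, and was called lower. Of the other 6 tested entries among 13, miR-133b-3p, at 67.8 to 131 and 180 to 522 CPM, was called higher and 5 were not called. No name of the list was without reads, though miR-208a had a single read in the UVA group and none in the other. The fibroblast list (miR-199a, miR-199b and miR-214) went the other way, from 2816 to 4234 CPM to 19107 to 28739 CPM, with 3 of 5 entries called higher. The neuron and glia list (miR-124, miR-9, miR-219a, miR-128 and miR-137) summed to 345 to 397 CPM without and 207 to 1312 CPM with UVA, and 4 of its 11 entries were tested. Its defining marker miR-124 was at 0 in all controls and at 36 reads in the UVA group. Erythroid miRNAs overlapped between groups, at 2129 to 2916 and 815 to 3435 CPM, and the hepatocyte miRNA miR-122 was at 52.0 to 153 CPM without and 2.53 to 10.6 CPM with UVA. The part of these cells in the result was not tested.

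The other miRNAs of the Dlk1-Dio3 region were given by 31 entries, of which 18 were tested. miR-493-3p was called lower and none was called higher, against 8.22% and 13.6% of all tested miRNAs. Of the 18, 17 were negative, with a median log2 fold change of -1.14. The groups did not overlap in 9 of the 18, all 9 lower in UVA, against 20.0% of all tested miRNAs lower without overlap. The 31 entries summed to 4483 to 6219 CPM without UVA and 1865 to 3179 CPM with it. The cluster summed to 11490 to 15278 and 1449 to 3481 CPM. The most abundant were not called: miR-127-3p, which lies opposite the coding sequence of Rtl1 and targets its mRNA, was at 2535 ± 733 and 1069 ± 436 CPM (log2 fold change -1.25, edgeR adjusted p = 0.0798). miR-434-5p was at 1837 ± 205.7 and 743 ± 438 CPM (-1.31, edgeR adjusted p = 0.0932), and miR-434-3p at 354 ± 32.6 and 191 ± 78.6 CPM (-0.89, edgeR adjusted p = 0.194; SD, n = 3 per group). The difference in response between these miRNAs and the cluster was not tested.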

How the data were processed

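Per the labels' protocols, total RNA was extracted with mirVana and made into small RNA libraries with a TruSeq kit. The read counts are whole numbers per mature sequence as deposited. The submitters' processing notes list Bowtie without a version. Its build and counting rule are not stated in these sources. The deposited RPM values are counts divided by a constant per library, which gives the authors' total reads. The authors' mean normalized signal, fold, log2 fold change and p-values are per the file headers, with the test not given. A further 2 emptied lines were not analysed here.

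Groups were compared with edgeR 4.0.16 in R 4.3.3 (quasi-likelihood test, TMM, filterByExpr, Benjamini-Hochberg over all tested miRNAs, threshold 0.05), and arm use with limma 3.58.1 (pseudocount 0.5). SE is the absolute log2 fold change over the square root of F. Tests were checked on simulated data with a fixed spread between libraries and no missing low counts. That check does not show how they behave on libraries like these. DESeq2 1.42.0 and limma-voom were alternatives. Coordinates are GRCm38 (RefSeq, GENCODE). The members, lists and alternatives were chosen with earlier results of these data known. Named are the called members, the 12 most abundant, both arms of the 4 hairpins with the smallest arm-use p, the end hairpins, the 3 most abundant other miRNAs of the region, partner arms, and those said to be chosen after their values were seen. Deviations of same-numbered libraries were not correlated, so numbers were not taken as pairs.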

Additional observations from a re-analysis of the deposited data

How the results depend on the processing

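The cluster share of miRNA reads was lower in UVA skin under each alternative run (difference -0.934 to -0.814 percentage points without single libraries, main -0.861, and -0.384 and -1.35 with the other denominators), as was the 5p share (-29.2 to -18.6, main -25.5). The count of members called lower, 13, was 6 to 16 without single libraries. No calls were read without non-irradiated replicates 1 and 2 together (added after seeing the data). In all other alternatives the count was 9 to 18, with 18 by limma-voom and 16 by the DESeq2 Wald test. Members tested, 41 in the main fit, were 45 without UVA replicate 2, 50 by DESeq2 and 66 with no filter. Calls lower over all miRNAs, 41 in the main fit, were 18 and 60 without UVA replicates 2 and 3. They were 67 by limma-voom and 56 by DESeq2. Without UVA replicate 1 they rose to 46 while members fell to 12. The count of members called higher, 0, was 1 with the authors' total reads (miR-543-3p) and 0 to 1 without single libraries (miR-3072-3p without non-irradiated replicate 3). The 3 hairpins called for arm use were 1 to 3 without single libraries. Same-numbered libraries had correlations of 0.08, -0.08 and -0.03, and no label pairs them. With the replicate block, 14 members were called lower, 11 of them among the 13 (miR-409-5p and miR-412-5p were lost, at 0.0688 and 0.0896, and miR-382-5p, miR-409-3p and miR-541-5p gained), and 1 hairpin for arm use (miR-369). With library size alone 6 of 41 members turned from negative to positive, and with the authors' total reads 10, with main values from -0.77 to -0.06. Those described here were miR-299a-3p (0.15, 0.39), miR-300-3p (0.027, 0.17), miR-369-3p (0.42, 0.71), miR-381-3p (0.49, 0.74) and, with total reads, miR-380-3p. miR-381-3p was also positive by the DESeq2 Wald test (0.022) and with counts under 10 set to 0 (0.029). Leaving out single libraries gave -0.64 to 0.33 for miR-381-3p (positive when UVA 2 or non-irradiated 3 was dropped), -0.58 to 0.062 for miR-369-3p and -0.59 to 0.15 for the arm ratio of miR-411 (both positive when UVA 3 was dropped). miR-376b-3p ranged from -0.16 to 0.59 (negative when non-irradiated 2 was dropped) and was -0.28 without both controls. The cause was not tested. Members under about 10 reads are limited by depth and by the missing low counts of 2 controls.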

Other observations

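In the authors' deposited table, 10 members of the cluster had a q of 0.05 or lower, all 10 lower in UVA skin, against 1.55% of the 1480 entries that were lower at that q. Of the 10, 8 were also called lower with edgeR. The other two were miR-409-3p (q = 0.0202 and log2 fold change -2.42 in the authors' deposited table) and miR-541-5p (q = 0.0475 and log2 fold change -1.98 in the authors' deposited table). Their edgeR adjusted p were 0.0753 and 0.0521, above the threshold. Conversely, edgeR called lower miR-299a-5p, miR-379-3p, miR-412-5p, miR-329-3p and miR-409-5p, which were above a q of 0.05 in the authors' deposited table. Their q there were 0.0913, 0.104, 0.167, 0.212 and 0.332, in that order.

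Members were also described by first base and base composition. Median log2 fold changes were -1.86 over 17 tested members that start with A and -0.78 over 17 that start with U, with 12 and 16 negative and 6 called lower in each. Over all tested miRNAs with these first bases the medians were 0.45 and 0.00, with 9.03% and 9.05% called lower. The difference between first bases was not tested. Spearman's rho between GC content and log2 fold change was -0.05 over the 41 members and 0.16 over all tested miRNAs, which share the same libraries. More abundant members tended to have more negative values, with a Spearman's rho of -0.37 between log2 mean CPM and log2 fold change. Both measures come from the same libraries, so they are not independent. No predicted entry lay inside a RefSeq hairpin of the cluster.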
